A study of Mus musculus with 8 samples.

Results

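Mouse embryonic stem (ES) cells given an siRNA against Psmd14 were set directly against the same cells given an siRNA against Ddb1, across all genes on the array. The comparison was chosen by label: the 2 arrays titled siPsmd14 and the 2 titled siDdb1, which are 4 of the 8 arrays in the series. The siPsmd14 cells, the siDdb1 cells and cells with a control siRNA (siNonTarget) were all NG4 ES cells, reverse transfected and collected at 48 h, with 2 arrays a group. The siNonTarget means were used only to tell which of the knockdowns had moved, and a further pair of arrays (siSox2) entered only the estimate of spread. Total RNA (5 ng) was amplified before hybridisation to Affymetrix arrays. The labels give no siRNA sequences, and they do not say that replicates were separate cultures; each p-value below covers only array-to-array spread, part of which may be technical.

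Psmd14 is the deubiquitinase of the proteasome lid. It removes the ubiquitin chain from a substrate as the protein is threaded into the proteolytic core, so it acts at the end of the pathway for nearly all ubiquitin-tagged proteins. Ddb1 links CUL4 ubiquitin ligases to receptors for a chosen set of substrates, many of them in DNA replication and repair. Cells with impaired proteasomes are known to induce proteasome subunits, stress-response genes and autophagy receptors, whereas loss of Ddb1 is known for replication stress and activation of p53. The direct comparison asks which transcripts separate loss of a general component of the pathway from loss of a ligase adaptor.

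The targeted genes were read first. Ddb1 measured 12.06 and 12.07 log2 intensity in siPsmd14 cells, 9.67 and 10.73 in siDdb1 cells, and 11.88 and 11.81 in siNonTarget cells. It was therefore lower on both siDdb1 arrays, at 22.1% and 46.1% of the siNonTarget level on a linear scale. The difference, siPsmd14 minus siDdb1, was 1.87 (SE 0.28), with an adjusted p of 0.0321 in limma. Psmd14 measured 11.88 and 11.75 in siPsmd14 cells, 11.93 and 12.02 in siDdb1 cells, and 12.07 and 11.97 in siNonTarget cells. Its siPsmd14 arrays lay below the others without overlap, at 90.5% and 82.7% of siNonTarget, but the difference of -0.16 did not pass the test (95% interval -0.45 to 0.13, adjusted p 0.743). A reduced Psmd14 transcript was thus not shown on these arrays, and every direction below rests on the siPsmd14 label. The targeted transcripts were not lowered to a like degree. The component targeted and the depth of its knockdown therefore cannot be told apart below. All 7 ES markers lay between 11.35 and 14.09 log2 intensity on the siPsmd14 and siDdb1 arrays, and Pou5f1, Nanog and Sox2 differed by 0.02, -0.23 and -0.12, none passing the test.

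The siPsmd14 arrays differed from each other, and so did the siDdb1 arrays. The second principal component of all 8 arrays held 25.4% of the variance. On it siPsmd14 replicate 1 lay at -55.82 and replicate 2 at -21.52, against -3.80 and 8.96 for the siDdb1 arrays. The third held 15.9%, with siDdb1 replicate 1 at -40.41 and replicate 2 at -11.41, against 18.42 and -1.15 for the siPsmd14 arrays. RNA integrity, read as the log2 gap between the 3' and 5' Actb probe sets, also set siPsmd14 replicate 1 apart, at 0.346 where the remaining arrays had 0.0962 to 0.214. Signal for 18S rRNA was highest on the replicate 2 arrays of siPsmd14 (13.09 log2) and siDdb1 (12.71), and 10.68 to 11.7 on the rest. Of the feeder-type fibroblast markers, summed linear intensity was 13473 and 10302 in siPsmd14 cells, 8376 and 8551 in siDdb1 cells and 7534 and 6501 in siNonTarget cells, over 25 genes. Of its 6 defining markers, Col1a1, Col3a1 and Postn read 3.20 to 3.84 log2 on these 6 arrays, below every array's median, and Col1a2, Thy1 and Dcn read 4.59 to 6.29. The part of these quantities in the results below was not tested.

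Among genes that passed the test, more were higher than lower in siPsmd14 cells. Of 18193 genes, each read at its brightest probe set, 107 (0.588%) differed at an adjusted p of 0.05 in limma, 83 of them (0.456%) higher and 24 (0.132%) lower in siPsmd14 cells. By probe set the count was 186 of 45037 (0.413%), with 146 higher (0.324%) and 40 lower (0.0888%). The higher genes differed by a median of 1.48 log2 (range 0.78 to 3.01) and the lower genes by -1.24 (range -2.33 to -0.73), and 90 of the 107 differed at least 2-fold. Across all genes the median difference was -0.002 and 49.6% lay above 0, so the excess of higher genes was found among the called genes only. The deposited values were already summarised with RMA, which puts arrays on a common scale. They therefore cannot show whether the whole array shifted. In all 107 genes the siPsmd14 arrays did not overlap the siDdb1 arrays; over all genes 19.6% lay wholly above and 20.5% wholly below.

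The number of called genes depended on single arrays. It was 9 without siPsmd14 replicate 1, 432 without siPsmd14 replicate 2, 18 without siDdb1 replicate 1, 37 without siDdb1 replicate 2 and 26 without either siNonTarget array, which alters only the spread; it was 7 when the siPsmd14 and siDdb1 arrays were fitted alone. The share of called genes that were higher in siPsmd14 cells was 77.6% with all arrays, 63.4% without siPsmd14 replicate 2 and 48.6% without siDdb1 replicate 2. Replicate 1 of siPsmd14 was the more extreme array in 73 of the 83 higher genes and in 16 of the 24 lower genes. In most of the 24 lower genes, siDdb1 replicate 1 was likewise the more extreme array of its pair. When each of these 4 arrays was left out in turn, 6 genes passed every time (Fosl1, Mt3, Fbxo2, Fetub and Nlrp4c higher, Gfra1 lower), 7 passed in 3 of the 4 fits, 18 in 2, 71 in 1 and 5 in none. Each of these fits leaves 1 array in its group, which is assumed to vary like the other groups, so they show how far a call leans on an array and not that it would recur. With array weights, 12 of the called genes named by rule missed the threshold (Tinagl1, Sqstm1, Keap1, Hspb8, Ier3, Krt8, Ctsd, Col4a2 and Nid1 among the higher, Itga1, Gbx2 and Dusp6 among the lower), at adjusted p of 0.0511 to 0.065.

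Against siNonTarget, most higher genes lay apart in siPsmd14 cells and most lower genes in siDdb1 cells. Of the 83 higher genes, the difference lay chiefly between siPsmd14 and siNonTarget cells in 58. Both knockdowns had moved apart in 10, and both had moved the same way, by unequal amounts, in 14. The remaining gene was Ddb1 itself, where siDdb1 cells had moved. Of the 24 lower genes, siDdb1 cells had moved in 14, both had moved apart in 8, siPsmd14 cells had moved in 1 (Nphs1os), and both had moved the same way in 1 (Serinc5). Most of the lower genes were therefore transcripts above the siNonTarget level in siDdb1 cells. This sorting used means only and carries no test, and both differences share the siNonTarget arrays. It went by share of the difference and not by distance from siNonTarget. In Mlkl, counted as moved by siPsmd14, siDdb1 minus siNonTarget was 0.42. In Keap1, counted as both moved apart, it was -0.29.

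**Figure D1:**
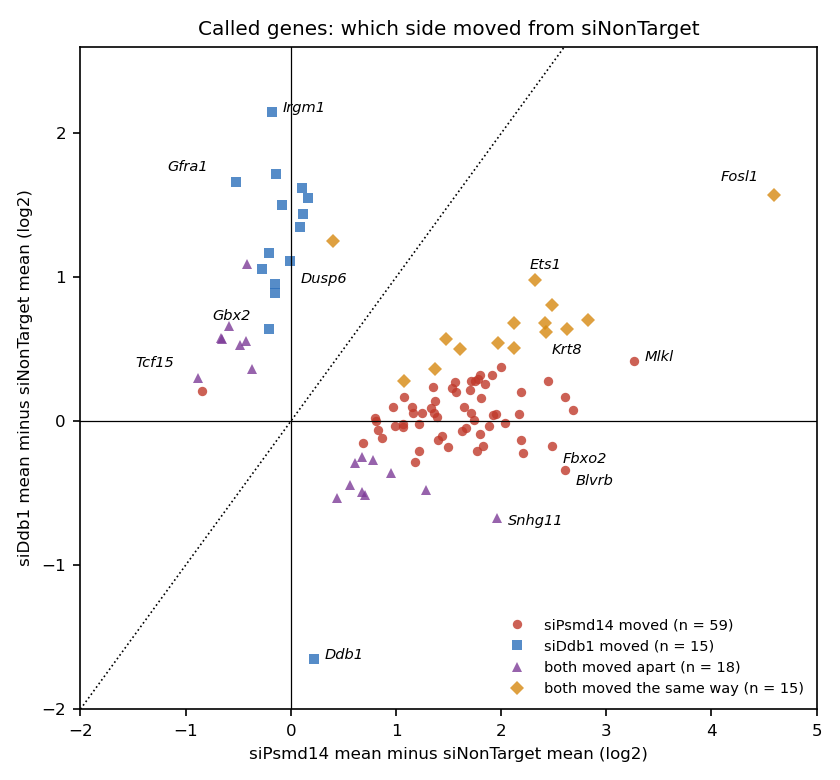
Each point is 1 of the 107 called genes, with the siPsmd14 mean minus the siNonTarget mean on the x axis and the siDdb1 mean minus the siNonTarget mean on the y axis (log2); the dotted line marks equal change. Circles near the horizontal line are the 59 genes where siPsmd14 cells moved, and squares near the vertical line the 15 where siDdb1 cells moved.

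Among the genes higher in siPsmd14 cells, Fosl1, which encodes the AP-1 subunit FRA1, had the largest difference. It measured 8.69 and 8.46 in siPsmd14 cells, 5.80 and 5.32 in siDdb1 cells and 3.76 and 4.21 in siNonTarget cells. The groups did not overlap, both knockdowns lay above siNonTarget, and siPsmd14 exceeded siDdb1 by 3.01 log2 (SE 0.23, 8.08-fold, adjusted p 0.00343). A second Fosl1 probe set was also called, at 2.33. The F-box protein gene Fbxo2, whose product recognises glycosylated proteins for ubiquitination, had the smallest adjusted p of all (0.000556). It read 11.49 and 11.23 in siPsmd14 cells, 8.64 and 8.76 in siDdb1 cells and 8.93 and 8.82 in siNonTarget cells, a difference of 2.66 (SE 0.14, 6.32-fold) in which siDdb1 cells stayed near the control.

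Blvrb, Mlkl and Mt3 were also among the 10 largest differences. Blvrb, a biliverdin reductase that acts after heme breakdown, measured 11.34 and 9.79 in siPsmd14 cells, 7.60 and 7.62 in siDdb1 cells and 8.08 and 7.82 in siNonTarget cells. Its difference was 2.95 (SE 0.39, adjusted p 0.0189), and it was 2.18 without siPsmd14 replicate 1, the far higher array of the pair. Mlkl, the membrane-permeabilising effector of necroptosis, measured 8.31 and 7.46 in siPsmd14 cells, 5.33 and 4.74 in siDdb1 cells and 4.85 and 4.38 in siNonTarget cells (difference 2.85, SE 0.30, adjusted p 0.00999). It was the only gene of 16 on the necroptosis, pyroptosis and caspase list to pass, where 0.456% of all genes were called higher. Its partner kinase Ripk3 differed by 0.31 (adjusted p 0.496). The metallothionein Mt3, a metal-binding protein, read 7.32 and 7.05 in siPsmd14 cells, 4.62 and 4.91 in siDdb1 cells and 4.87 and 5.08 in siNonTarget cells (difference 2.42, SE 0.16, adjusted p 0.00126).

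The others of the 10 largest were Snhg11 and Mir22hg, both noncoding host transcripts, at 2.63 and 2.6, the matrix-associated gene Tinagl1 at 2.45, the bile acid synthesis enzyme Hsd3b7 at 2.32, and Fetub, a secreted protease inhibitor, at 2.17. Snhg11 was split between the knockdowns: it measured 9.51 and 8.57 in siPsmd14 cells and 6.73 and 6.08 in siDdb1 cells, with siNonTarget at 7.08 and 7.07 in between. The actin monomer-binding profilin Pfn2 behaved likewise, at 9.85 and 8.93 in siPsmd14 cells, 7.51 and 7.72 in siDdb1 cells and 8.10 and 8.09 in siNonTarget cells (difference 1.78, SE 0.25, adjusted p 0.0275). So did Zfpm1, a GATA-factor cofactor, with a difference of 1.31 (adjusted p 0.0102), though its other probe set differed by -0.10.

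**Figure D2:**
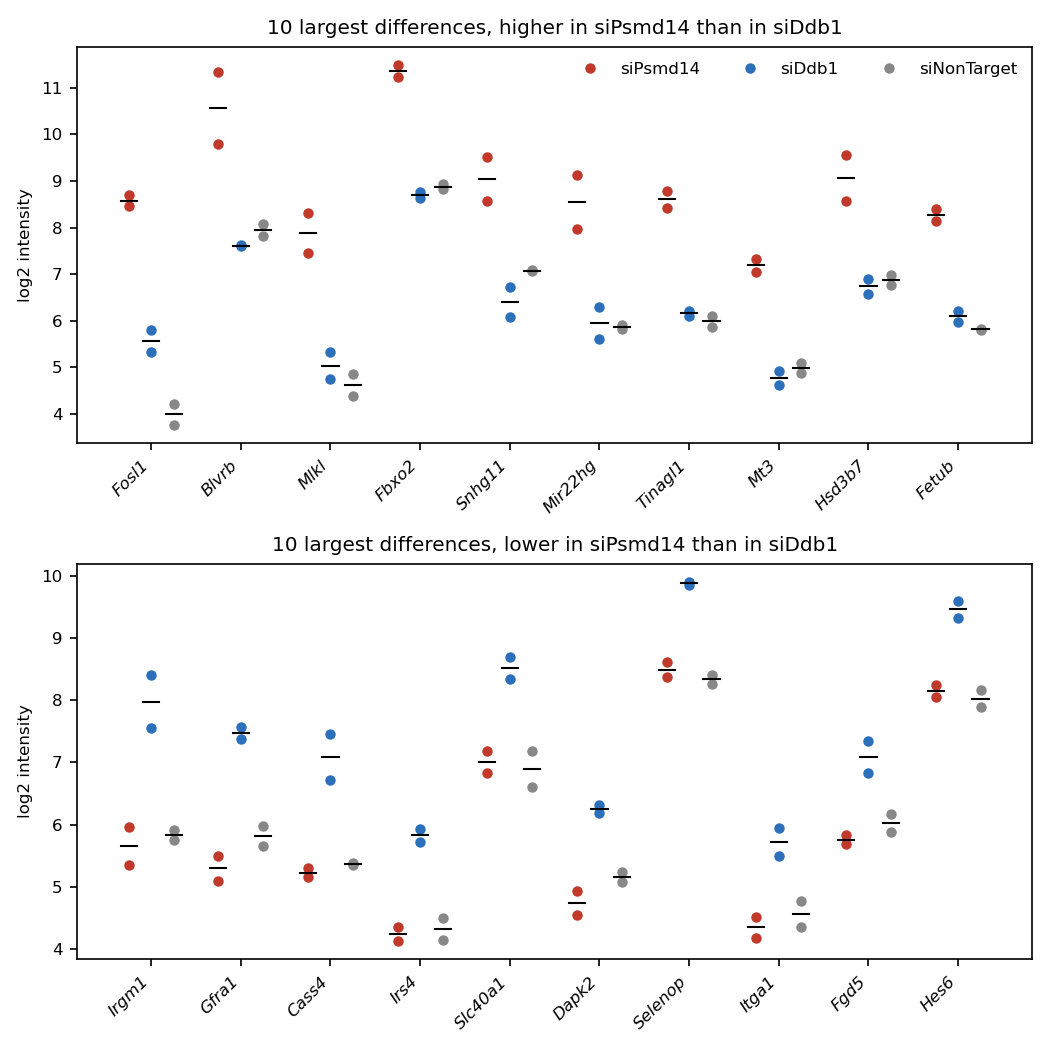
Log2 intensity (y axis) on each array for the 10 largest differences higher (top) and lower (bottom) in siPsmd14 cells than in siDdb1 cells; points are arrays and dashes the means of 2. In the top panel the siDdb1 points mostly sit beside siNonTarget, and in the bottom panel the siPsmd14 points do.

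Proteasome genes lay on the siPsmd14 side, but none passed the test. All 31 structural genes measured had a difference above 0, where 49.6% of all genes did, ranging from 0.03 to 0.79 with a median of 0.38; none was called (0 of 31, against 0.588% of all genes). Psmd14 was not counted here, since the siRNA targets it. By role, the 9 ATPase and scaffold genes of the 19S base had a median of 0.43, the 14 genes of the 20S core 0.40 and the 8 other lid genes 0.20. The arrays of siPsmd14 and siDdb1 did not overlap for 24 of the 31, all with siPsmd14 above, as in 19.6% of all genes. Psmd1, the largest base scaffold, came nearest to the threshold, at 12.35 and 12.17 in siPsmd14 cells, 11.62 and 11.69 in siDdb1 cells and 11.73 and 11.59 in siNonTarget cells (difference 0.61, SE 0.13, 95% interval 0.32 to 0.89, adjusted p 0.105).

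Among 20S genes, the alpha-ring gene Psma7 had the largest difference, 0.79 (95% interval 0.35 to 1.22, adjusted p 0.151), and the chymotrypsin-like subunit Psmb5 the smallest, 0.03 (-0.31 to 0.37). Psmd3 led the lid at 0.45 (adjusted p 0.224). The median structural gene lay 0.54 and 0.14 above the siNonTarget mean on the siPsmd14 arrays, against -0.08 and -0.04 on the siDdb1 arrays, so most of the height came from siPsmd14 replicate 1. Without that array the 20S median was 0.16 and the base median 0.25; without siPsmd14 replicate 2 they were 0.67 and 0.52, and Psma7 was called. The 16 immunoproteasome, activator and assembly genes had no such tilt: 8 lay above 0 and 8 below, with a median of -0.02, and the inducible subunit Psmb10 differed by -0.44 (adjusted p 0.376).

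**Figure D3:**
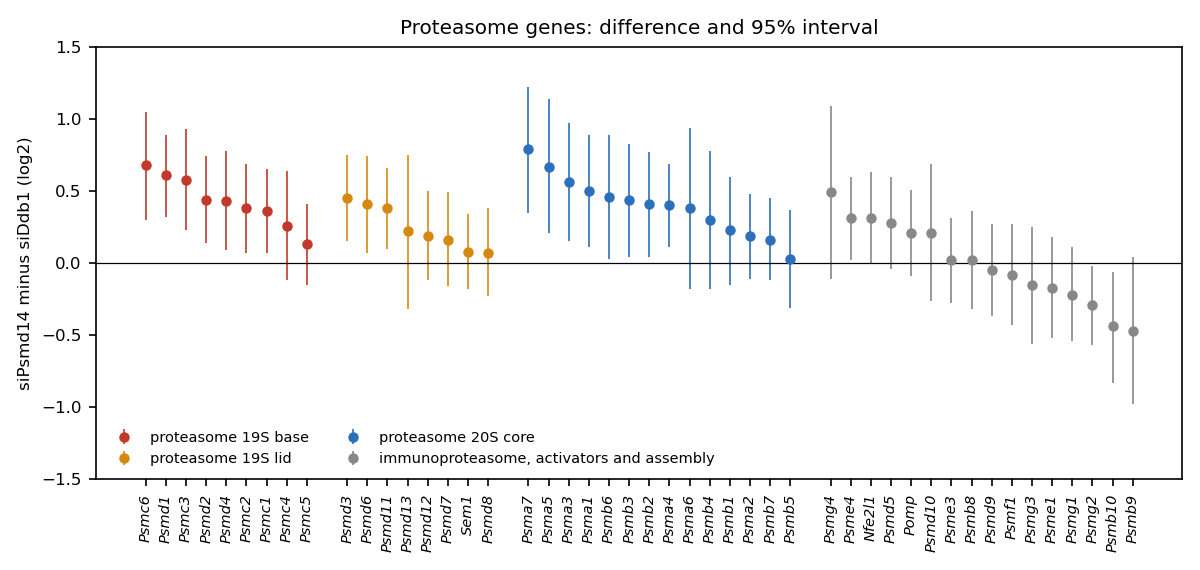
Difference, siPsmd14 minus siDdb1 (log2, y axis), with its 95% interval from limma for each proteasome gene, grouped by subcomplex. Every base, lid and 20S point lies above 0, at 0.03 to 0.79, while the immunoproteasome, activator and assembly genes spread to both sides.

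None of 27 CUL4-DDB1 ligase and cullin-regulator genes, counted without Ddb1, passed the test, where 0.588% of all genes did. Their median difference was 0.03. The substrate receptor gene Crbn read 9.99 and 9.51 in siPsmd14 cells against 8.94 and 9.36 in siDdb1 cells (difference 0.60, adjusted p 0.279), and Det1 read 6.66 and 6.85 against 7.16 and 7.54 (difference -0.60, adjusted p 0.170). None of 33 replication and licensing genes, 25 mitosis genes or 24 DNA repair genes passed either, with medians of -0.09, -0.10 and -0.07. Cdc45, a component of the replicative helicase, had the smallest adjusted p among the replication genes (0.119), at 8.09 and 8.24 in siPsmd14 cells and 8.84 and 8.70 in siDdb1 cells.

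No p53 target separated the knockdowns at the threshold. None of 32 passed, where 0.588% of all genes did, 16 lay above 0 and 16 below, and the median difference was 0.03. Set against siNonTarget, which both share, the list's median was 0.59 in siPsmd14 cells and 0.65 in siDdb1 cells. Mdm2, the ubiquitin ligase that degrades p53, came nearest, at 11.81 and 11.62 in siPsmd14 cells, 11.26 and 10.92 in siDdb1 cells and 10.12 and 10.05 in siNonTarget cells (difference 0.62, 95% interval 0.29 to 0.95, adjusted p 0.14). The antiproliferative gene Btg2 leaned the other way, at 9.34 and 10.09 in siPsmd14 cells against 11.05 and 10.30 in siDdb1 cells (difference -0.96, 95% interval -1.86 to -0.06, adjusted p 0.428). Intervals of this width do not show that the p53 targets were equal.

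The stress-response lists held 1 to 3 called genes each, all higher in siPsmd14 cells, where 0.456% of all genes were called higher. Of 21 genes of the NRF2 response to oxidants, 3 passed and the median was 0.15. Me1, which makes NADPH, measured 10.03 and 9.53 in siPsmd14 cells, 8.08 and 8.18 in siDdb1 cells and 7.99 and 7.96 in siNonTarget cells (difference 1.65, SE 0.19, adjusted p 0.0131). Sqstm1, the autophagy receptor p62, measured 12.26 and 11.72 in siPsmd14 cells, 10.71 and 10.32 in siDdb1 cells and 10.38 and 10.11 in siNonTarget cells (difference 1.47, SE 0.23, adjusted p 0.0378). Keap1, the ligase adaptor that restrains NRF2, differed by 0.90 (adjusted p 0.0401), with siDdb1 cells below siNonTarget; its other probe set differed by 0.25. Gclm, for glutathione synthesis, came just short at 0.74 (adjusted p 0.0513), and Hmox1, which breaks down heme, differed by 0.32 with overlapping arrays (adjusted p 0.762).

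Of 23 heat shock chaperones only Hspb8, a small heat shock protein, passed, and the list's median was -0.06. It measured 9.88 and 8.66 in siPsmd14 cells, 7.41 and 7.16 in siDdb1 cells and 7.45 and 7.56 in siNonTarget cells (difference 1.98, SE 0.33, adjusted p 0.0485). Its other probe sets differed by 1.45 and 0.45, neither passing. Without the dimmer 50% of probe sets the adjusted p of Hspb8 was 0.0571 and after quantile normalization 0.055, and the list then held no called gene. Its co-chaperone Bag3 differed by 1.08 (adjusted p 0.110), while the inducible Hsp70 gene Hspa1a differed by -0.71 (adjusted p 0.691). Among 29 genes of the unfolded protein and integrated stress responses, with a median of 0.18, Cebpb alone passed (difference 1.20, SE 0.15, adjusted p 0.0166). This transcription factor measured 9.18 and 9.02 in siPsmd14 cells, 7.92 and 7.90 in siDdb1 cells and 7.77 and 7.93 in siNonTarget cells. Its other probe set differed by 0.88 and did not pass. Of 27 autophagy and lysosome genes, with a median of 0.24, Sqstm1 and the lysosomal protease gene Ctsd passed, the second at 11.59 and 11.21 in siPsmd14 cells against 10.49 and 10.28 in siDdb1 cells (difference 1.01, adjusted p 0.0485); without the dimmer 50% of probe sets Ctsd missed the threshold at 0.0563.

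Further called genes of the ubiquitin system and of heme and iron handling were picked out after their values were seen. Ecpas, a proteasome adaptor and scaffold, measured 9.18 and 8.66 in siPsmd14 cells against 7.30 and 7.48 in siDdb1 cells (difference 1.53, adjusted p 0.0166). Its other probe sets differed by 1.17, 0.64 and 0.83, none passing. Nploc4 and Ubxn4, both partners of the segregase VCP, which pulls ubiquitinated proteins out of complexes and membranes, differed by 0.85 and 1.02. Fbxo32, a ubiquitin ligase subunit known from muscle atrophy, differed by 1.67, and the RING-finger genes Trim54 and Rnf183 by 1.59 and 1.11. The other Fbxo32 probe sets differed by 1.11 and 0.81, neither passing. The heme transporter gene Slc48a1 read 8.49 and 8.06 in siPsmd14 cells against 6.86 and 6.83 in siDdb1 cells (difference 1.43, adjusted p 0.0108). Bach1, a heme-sensing repressor, differed by 0.91, whereas Slc40a1, the iron exporter ferroportin, was lower in siPsmd14 cells.

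Of 21 AP-1 and immediate early genes, with a median of 0.26, Fosl1 and the stress-inducible Ier3 passed, where 0.456% of all genes were called higher. Ier3 measured 9.12 and 9.03 in siPsmd14 cells, 8.01 and 7.92 in siDdb1 cells and 7.57 and 7.36 in siNonTarget cells (difference 1.11, SE 0.17, adjusted p 0.0401). Jun, the usual partner of FRA1, differed by 0.98 (95% interval 0.46 to 1.49, adjusted p 0.133), and Fos by -0.51 (-1.06 to 0.03, adjusted p 0.498). Mafg, a small MAF partner of NRF2, came close at 0.75 (adjusted p 0.0551).

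Promoters were read because Fosl1 led the differences. In RefSeq windows of GRCm38.p6 from 250 bases before to 50 after each gene's start, the AP-1 motif TGANTCA, searched on both strands, was present in 11 of 66 higher genes with a window (16.7%), in 1 of 18 lower genes (5.56%) and in 1090 of all 14452 genes with one (7.54%). For the antioxidant response motif TGACNNNGC, which can overlap the AP-1 motif, the shares were 24.2%, 16.7% and 16.2%. The heat shock motif GAANNTTC was present in 6.06%, 5.56% and 7.6%, the E-box CACGTG in 10.6%, 11.1% and 10.2%, and the CRE motif TGACGTCA in none of the called genes and in 2.92% of all. These shares are a description without a test, and a match is not a binding site. Stretches of 60 bases with the AP-1 match in capitals, 5′ to 3′ on the gene's strand, are given for 5 of the higher genes and for Irgm1, the 1 lower gene with a match. They lie at chr4:130175262-130175321 (Tinagl1, minus strand), chr5:31116448-31116507 (Trim54, plus), chr4:58912792-58912851 (Ecpas, minus), chr1:182517759-182517818 (Capn2, a calpain protease, minus), chr6:17463878-17463937 (Met, plus) and chr11:48871501-48871560 (Irgm1, minus).
Tinagl1: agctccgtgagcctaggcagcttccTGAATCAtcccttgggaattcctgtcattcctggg
Trim54: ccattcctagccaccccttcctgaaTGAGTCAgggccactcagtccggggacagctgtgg
Ecpas: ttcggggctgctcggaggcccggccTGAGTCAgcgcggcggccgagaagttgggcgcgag
Capn2: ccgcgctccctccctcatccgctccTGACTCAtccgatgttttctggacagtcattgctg
Met: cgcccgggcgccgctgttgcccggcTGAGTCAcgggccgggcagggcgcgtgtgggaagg
Irgm1: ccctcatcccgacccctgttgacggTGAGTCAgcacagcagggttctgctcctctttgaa

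The keratin and cytoskeletal lists each held 2 called genes, all higher in siPsmd14 cells, beside 0.456% of all genes. Of 18 keratin and junction genes, with a median of 0.41, Krt8 and the desmosome gene Dsp passed. Krt8 measured 12.51 and 12.40 in siPsmd14 cells, 10.45 and 10.49 in siDdb1 cells and 9.92 and 9.74 in siNonTarget cells (difference 1.99, SE 0.29, adjusted p 0.0306), and both of its other probe sets were called the same way. Dsp measured 10.15 and 10.37 in siPsmd14 cells, 8.32 and 8.57 in siDdb1 cells and 7.80 and 7.85 in siNonTarget cells (difference 1.81, SE 0.18, adjusted p 0.00954). In both genes siDdb1 cells also lay above siNonTarget, by less. Krt18, the partner keratin of Krt8, did not pass at 1.70 (95% interval 1.02 to 2.38, adjusted p 0.0624). In bulk samples such as these, more cells of a type and more RNA per cell cannot be told apart.

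The 30 actin, annexin and S100 genes had the highest list median, 0.51, with 26 above 0. Gsn, the actin-severing gelsolin, measured 9.65 and 9.17 in siPsmd14 cells, 7.41 and 7.17 in siDdb1 cells and 6.80 and 6.37 in siNonTarget cells (difference 2.13, SE 0.25, adjusted p 0.0143); 3 of its 5 other probe sets were called the same way. S100a4, a calcium-binding protein that is also on the fibroblast list and was its only called gene of 25, measured 5.99 and 5.84 in siPsmd14 cells against 4.35 and 4.57 in siDdb1 cells (difference 1.45, adjusted p 0.0165). Anxa2 and Anxa5, which bind membrane phospholipids, differed by 1.09 and 1.01 and did not pass (adjusted p 0.18 and 0.114).

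Of 27 matrix and integrin genes, 2 were called higher and 1 lower, where 0.456% and 0.132% of all genes were, and the median was 0.18. The same shares stand beside the endoderm and trophectoderm counts below. Lama3, an epithelial laminin chain, differed by 1.74 (adjusted p 0.00952), but its other probe set by 0.09. Nid1, a basement membrane linker, differed by 0.97 (adjusted p 0.0498), and the collagen receptor gene Itga1 by -1.38 (adjusted p 0.0401), with -0.05 at its other probe set; neither call held when any of the 4 arrays was left out. Among 21 endoderm genes, with a median of 0.15, the basement membrane collagen gene Col4a2 passed at 1.48 (adjusted p 0.0378) but, like Nid1 and Itga1, lost the call when any 1 of the 4 arrays was left out, while Sox17, which marks endoderm, differed by 0.47 (adjusted p 0.31). Of 25 trophectoderm genes, with a median of 0.29, the phosphatase subunit gene Ppp2r3a passed at 1.06 (adjusted p 0.0197), and Gata3 differed by 0.43 (adjusted p 0.586). Met, a receptor tyrosine kinase, and the desmosomal plaque gene Pkp3, both picked out after their values were seen, differed by 1.29 and 1.22; their other probe sets differed by 0.11 and 0.67, neither passing.

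The lower genes were led by Irgm1, an interferon-inducible GTPase that acts in cell defence and autophagy. It measured 5.35 and 5.96 in siPsmd14 cells, 8.40 and 7.55 in siDdb1 cells and 5.75 and 5.91 in siNonTarget cells, so siDdb1 cells stood apart. The difference was -2.33 (SE 0.28, 5.02-fold, adjusted p 0.0143). No other of 25 interferon genes passed, where 0.132% of all genes were called lower, and the list's median was -0.15. Ifit2 and Irf1, both interferon-response genes, differed by -0.81 and -1.29 (adjusted p 0.0723 and 0.144). Parp12, an interferon-stimulated ADP-ribosyltransferase not on the list, was lower at -1.24 (adjusted p 0.0189), reading 6.35 and 6.69 in siPsmd14 cells and 7.88 and 7.64 in siDdb1 cells, with siNonTarget between them at 7.2 and 7.02.

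The next lower genes included receptors and adaptors of growth factor signalling and a neural regulator. Gfra1, a GDNF coreceptor, measured 5.10 and 5.50 in siPsmd14 cells, 7.38 and 7.57 in siDdb1 cells and 5.65 and 5.98 in siNonTarget cells (difference -2.18, SE 0.18, adjusted p 0.00529). Its other probe sets were dim and differed by -0.17 and -0.53, neither passing. Irs4, an insulin receptor substrate, measured 4.36 and 4.12 in siPsmd14 cells, 5.93 and 5.72 in siDdb1 cells and 4.5 and 4.15 in siNonTarget cells (difference -1.59, SE 0.16, adjusted p 0.00954), with 0.16 at its other, dim probe set. Hes6, a transcription factor that promotes neurogenesis, measured 8.06 and 8.24 in siPsmd14 cells, 9.60 and 9.33 in siDdb1 cells and 8.16 and 7.89 in siNonTarget cells (difference -1.32, SE 0.15, adjusted p 0.0131). These were the 3 called genes of 24 on the neuroectoderm list, all lower, where 0.132% of all genes were called lower, and the list's median was -0.12. This list, like the others, was chosen with earlier results of these data known, so the count is a description without a test.

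The remaining large differences had the same shape, with siDdb1 cells high and siPsmd14 cells near siNonTarget. Cass4, a focal adhesion adaptor, measured 5.30 and 5.15 in siPsmd14 cells against 7.46 and 6.72 in siDdb1 cells (difference -1.87, adjusted p 0.0131). Selenop, the plasma selenium carrier, measured 8.37 and 8.61 against 9.91 and 9.86 (difference -1.39, adjusted p 0.00954). Slc40a1 measured 6.83 and 7.19 against 8.69 and 8.35 (difference -1.51, adjusted p 0.0311). Fgd5 differed by -1.32 (adjusted p 0.0311). In the death-associated kinase gene Dapk2, at -1.51 (adjusted p 0.0299), both knockdowns had left siNonTarget in opposite directions.

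Genes of primed pluripotency and ERK feedback had the lowest list median, -0.76, with 14 of 17 below 0 and 1 called. Of all 18193 genes, 9169 lay below 0 and 0.132% were called lower. Dusp6, the phosphatase that inactivates ERK and is itself induced by it, measured 9.26 and 9.70 in siPsmd14 cells, 10.66 and 10.55 in siDdb1 cells and 9.65 and 9.33 in siNonTarget cells (difference -1.12, SE 0.17, adjusted p 0.0397). Pou3f1 and Fgf5, which mark the epiblast after implantation, had larger differences that did not pass. Pou3f1 read 8.34 and 9.43 in siPsmd14 cells against 10.85 and 10.50 in siDdb1 cells (difference -1.79, 95% interval -2.52 to -1.07, adjusted p 0.0644). Fgf5 read 3.37 and 4.52 against 5.44 and 6.02 (difference -1.78, 95% interval -2.55 to -1.01, adjusted p 0.0767). The siPsmd14 arrays of both genes lay over 1 log2 apart. The other ERK feedback genes Spry4, Spry2, Etv5 and Etv4 did not pass and differed by -1.09, -0.26, -0.09 and 0.37. The list's median was -0.42 without siPsmd14 replicate 1 and -1.21 without siPsmd14 replicate 2.

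**Figure D4:**
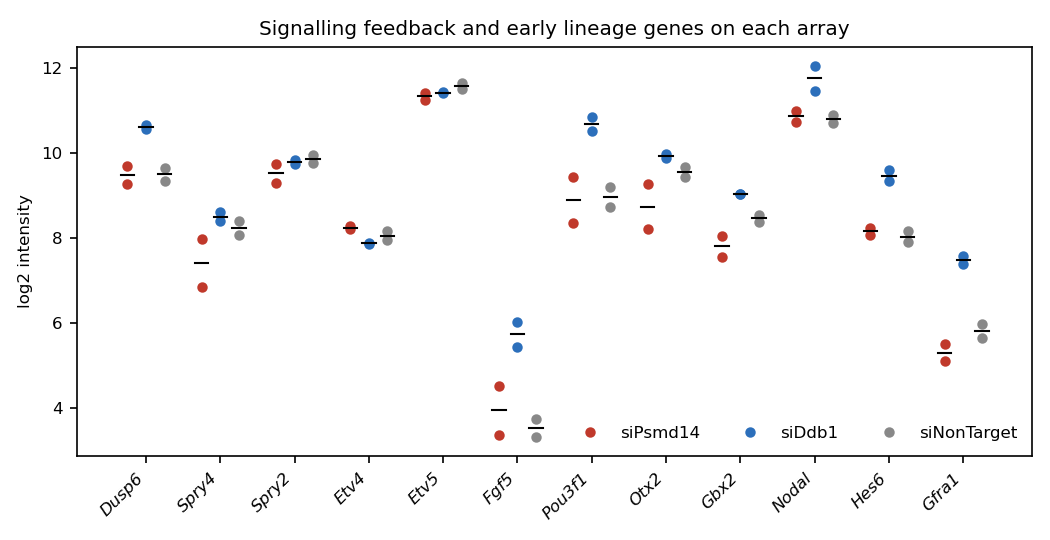
Log2 intensity (y axis) on each array for 12 genes of the primed, naive, mesoderm and neuroectoderm lists, picked after their values were seen; points are arrays and dashes the means of 2. Dusp6, Gbx2, Hes6 and Gfra1 passed the test, with all siPsmd14 points below all siDdb1 points.

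Naive pluripotency genes had a median of -0.10 over 24 genes. Gbx2, a homeobox factor that supports ES cell self-renewal downstream of STAT3, was the 1 called gene, where 0.588% of all genes were called. It measured 7.56 and 8.05 in siPsmd14 cells, 9.02 and 9.03 in siDdb1 cells and 8.38 and 8.54 in siNonTarget cells, with the control between the knockdowns (difference -1.22, SE 0.19, adjusted p 0.0401). The naive factors Esrrb, Klf4 and Zfp42 differed by 0.02, 0.10 and -0.08. None of 21 general pluripotency genes passed. Dnmt3l came nearest at -0.53 (adjusted p 0.182). Of these 21, 18 lay below 0, where 9169 of all 18193 genes did, and the median was -0.16. Relative to the siNonTarget mean, the list's median was -0.41 on siPsmd14 replicate 1 and -0.08 on replicate 2. It was -0.07 and -0.02 on the siDdb1 arrays, so most of the tilt came from siPsmd14 replicate 1. Tcf15, an early epiblast transcription factor picked out after its values were seen, was lower at -1.19 (adjusted p 0.0228), reading 9.09 and 9.45 in siPsmd14 cells, 10.57 and 10.35 in siDdb1 cells and 10.04 and 10.27 in siNonTarget cells.

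Mesoderm genes (21), cholesterol synthesis genes (19) and genes of the 2-cell-like state and germline (19) held no called gene, with medians of -0.07, -0.07 and -0.10. Nodal, the signalling ligand of the early epiblast, read 10.72 and 10.99 in siPsmd14 cells against 12.05 and 11.46 in siDdb1 cells (difference -0.90, adjusted p 0.118). Fdft1, which commits isoprenoids to sterols, and the meiotic gene Sycp3 differed by -0.30 and 0.81 (adjusted p 0.406 and 0.34). In all, 16 of 29 lists held a called gene and none held more than 3, with 0.588% of all genes called; how many lists would hold one by their size was not tested.

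**Figure D5:**
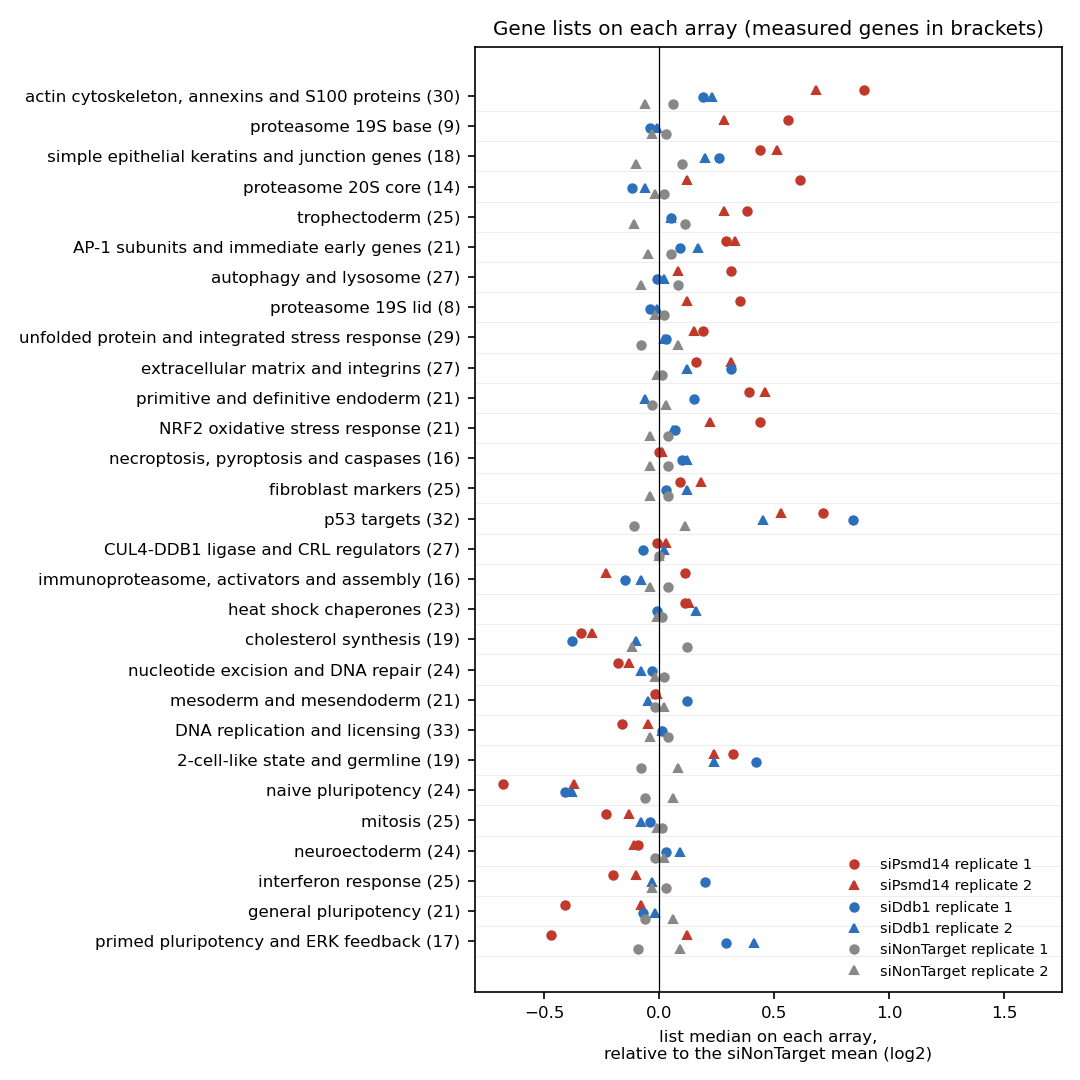
Median of each list's genes on each array relative to the siNonTarget mean (log2, x axis), ordered from the highest to the lowest median difference of siPsmd14 minus siDdb1. The p53 targets lie above 0 on the siPsmd14 and siDdb1 arrays alike, the proteasome subcomplexes are higher on the siPsmd14 arrays, and the primed list differs between the 2 siPsmd14 arrays.

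Dim signals and other probe sets limited single genes. The table gives no detection call, and 15 of the 83 higher genes had a siDdb1 mean under 5 log2 and 8 of the 24 lower genes a siPsmd14 mean under 5. The medians of the siPsmd14, siDdb1 and siNonTarget arrays were 4.79 to 4.85. Of the 107 called genes, 54 had another probe set; in 21 of them another was called the same way and in none the opposite way, and 78 of 88 such probe sets had the same sign.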

How the data were processed

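Per the submitters' processing notes the arrays were summarised with RMA; the deposited values are linear intensity per probe set, and log2 was taken here. Of 45101 probe sets, 64 controls were left out and 45037 tested; 34945 had 1 gene symbol in the platform annotation, 932 several and 9160 none. A gene (18193 in all) was read at its probe set with the highest mean over 8 arrays. limma 3.58.1 (R 4.3.3; lmFit and eBayes) was fitted to all 8 arrays of 4 groups, with the contrast siPsmd14 minus siDdb1 and Benjamini-Hochberg adjustment over all probe sets at 0.05. The median standard error was 0.151 log2, and at that value a 95% interval reaches 0.342 to each side of a difference. Many called genes had wider intervals, such as Blvrb at 2.08 to 3.83. Having only 2 arrays a group limits the precision. On simulated data of 45037 probe sets for this contrast, 94% of planted differences of 1 log2 and 100% of those of 2 log2 were recovered, with 10 false calls. The simulated noise was independent and of equal spread in every group, whereas the siPsmd14 arrays, and the siDdb1 arrays, differed from each other. These shares check the code and do not give the sensitivity reached on these arrays.

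A called gene counted as moved by siPsmd14 where siPsmd14 minus siNonTarget was over 0.75 and up to 1.25 of the difference, by siDdb1 from -0.25 to under 0.25, by both apart from 0.25 to 0.75, and by both the same way otherwise. Named genes were the targets and Pou5f1, Nanog and Sox2, the 10 largest calls each way, up to 4 called genes of each of 29 lists (or the gene with the smallest p), and the 5 largest calls where siDdb1 moved or both moved apart; other genes named were chosen after their values were seen. The comparison, its genes and the lists were chosen with earlier results of these data known, so lists carry counts and medians and no set test. Promoters are RefSeq windows (GRCm38.p6), matched for 66 of 83 higher and 18 of 24 lower genes. Alternatives changed the filter on dim probe sets, the scaling, the variance model, array weights, the arrays fitted, the replicate block, the thresholds and single arrays.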

Additional observations from a re-analysis of the deposited data

How the results depend on the processing

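Against 186 probe sets and 107 genes called, the counts were 121 probe sets with mean log2 under 5 left out, 122 with array weights, 11 (7 genes) with the 4 arrays alone and 22 (15 genes) at an adjusted p of 0.01. Leaving out 1 array gave 11 to 884 probe sets and 9 to 432 genes. The other alternatives stayed within 1.5 times, at 130 to 260 probe sets and 76 to 155 genes, with 74.8% to 81.6% of genes or probe sets higher in siPsmd14 cells. Replicate numbers shared only a number (r of 0.185 between siPsmd14 and siDdb1 deviations); with the replicate block, 180 probe sets and 102 genes were called, 89 of the genes shared. Of the 41 called genes named by rule, 29 kept the call with array weights, 35 with the replicate block and 7 with the 4 arrays alone. None turned direction in any fit, but this was largely fixed in advance. Their siPsmd14 and siDdb1 arrays did not overlap, and most alternatives leave the difference itself unchanged. Without siPsmd14 replicate 1, Pou5f1 was -0.02 and Sox2 0.04, and without siPsmd14 replicate 2 they were 0.06 and -0.29; neither was called in any fit. Psmd1 was called with trend and robust variance, and Psma7 and Sycp3 without siPsmd14 replicate 2. The cause of these shifts was not tested; 2 arrays a group, and dim signals without detection calls, limit every result.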
